A study of Mus musculus with 2 samples.

Results

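*H19*, *Nts*, *Nmu* and *Sbpl* are 4 of the 32589 genes in the count tables of 2 single-cell RNA-Seq libraries from mouse cholangiocarcinomas (CCAs). They were selected on these same cells, as genes with far fewer UMIs in the tumor cells of the anti–PD-1 library than in those of the PBS library, and were matched by gene symbol, each of which occurs once. UMIs (unique molecular identifiers) count captured RNA molecules. The difference between the libraries that chose the genes is given below as a description, and none of it was tested.

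Both libraries came from shYT mice, in which a ubiquitous CAG-rtTA3 driver and doxycycline switch on shRNAs against *Yap1* and *Wwtr1* (TAZ) in all tissues. CCAs were induced by hydrodynamic tail vein injection of the Notch intracellular domain (NICD) and myristoylated AKT, and shRNA expression was started on day 25. One group received PBS, the other an anti–PD-1 antibody (clone RMP1-14) on days 26, 29 and 32, and tumors were taken on day 33. Both groups therefore carried the YAP/TAZ knockdown, and no library with the control shRNA was used here. Each group was 1 library of dissociated tumor-bearing liver, for which the labels give neither the shRNA line nor the age of the animals. The study describes several mice per treatment group, but the deposited cells are not tied to animals, so they are 1 sample per group and a difference between the libraries cannot be told apart from a difference between animals or preparations. All intervals below cover counting error only.

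*H19* is an imprinted long noncoding RNA, expressed from the maternal allele, abundant in fetal tissues including the liver and silenced in most adult tissues. It is the host transcript of miR-675 and a neighbor of *Igf2* in the same imprinted domain. *Nts* encodes the precursor of neurotensin and *Nmu* that of neuromedin U, both secreted peptides known from the gut and nervous system that act through G protein–coupled receptors. *Sbpl* encodes a spermine binding protein-like secretory protein, a paralog of the prostate secretory protein *Sbp*. Detection of such transcripts in single cells depends on depth and on free RNA in the suspension, and both are given beside the values.

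In GRCm38, the assembly that mm10 names, *H19* (ENSMUSG00000000031) lies at chr7:142575529-142578143, *Nts* (ENSMUSG00000019890) at chr10:102481756-102490486, *Nmu* (ENSMUSG00000029236) at chr5:76333495-76363788 and *Sbpl* (ENSMUSG00000024125) at chr17:23953084-23955274. All 4 are on the minus strand. GENCODE vM21 annotates *H19* as a lincRNA with 7 transcripts of 2 to 5 exons, and *Nts*, *Nmu* and *Sbpl* as protein coding, with 4, 10 and 3 or 4 exons. The miR-675 hairpin lies inside an exon of 3 of the 7 *H19* transcripts, at chr7:142577064-142577147, and has no row of its own in the count tables. A UMI of *H19* therefore counts the host RNA and not the processed miRNA. The 2 mature forms, from RefSeq (GRCm38.p6), are shown because they are the sequence product of the locus, with the seed (bases 2 to 8) in capitals:
mmu-miR-675-5p: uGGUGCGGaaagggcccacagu
mmu-miR-675-3p: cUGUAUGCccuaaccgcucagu
Neither seed is shared with another of the 1738 mature miRNAs in the RefSeq table.

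*Nts* and *Nmu* were the pair of members found together most often in the kept tumor cells (below), so the bases before their start sites are shown, from RefSeq (GRCm38.p6, minus strand, 5′ to 3′). The windows are chr10:102490487-102490668 for *Nts* and chr5:76363789-76364027 for *Nmu*, each ending before the GENCODE gene, with matches to the AP-1 letters TGANTCA in capitals:
Nts: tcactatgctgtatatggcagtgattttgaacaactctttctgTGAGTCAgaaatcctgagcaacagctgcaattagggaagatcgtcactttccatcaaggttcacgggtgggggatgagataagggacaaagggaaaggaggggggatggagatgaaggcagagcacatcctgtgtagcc
Nmu: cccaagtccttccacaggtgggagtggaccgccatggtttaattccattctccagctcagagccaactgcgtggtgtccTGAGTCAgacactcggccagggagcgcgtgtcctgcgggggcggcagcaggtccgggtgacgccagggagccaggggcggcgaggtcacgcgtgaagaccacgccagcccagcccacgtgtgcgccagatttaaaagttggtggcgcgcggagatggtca
The letters of 6 motifs were searched on both strands of the 250 bases before the RefSeq start. TGANTCA occurred once before *Nts*, 207 bases from the start, and once before *Nmu*, 171 bases from it, and occurred in 6.75% of all 32851 promoters of the table. The CRE-like letters TGACATCA occurred once before *Nts*, 67 bases from the RefSeq start, and in 2.93% of promoters. The last 68 bases before that start lie inside the GENCODE *Nts* gene, this match among them, and are not shown. The *Sbpl* window held TATAAA 30 bases from the start, found in 12.4% of promoters, and no TGANTCA. None of the 3 windows held GGAATG, the TEAD letters (12.6% of promoters), TGGGAA, the RBPJ letters (21.6%), or TGACGTCA, the full CRE (1.55%). These letters were chosen with the sequences in view, and a match describes the window only. *H19* has no entry in the promoter table.

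The libraries held 19397 (PBS) and 19451 (anti–PD-1) barcodes, 219 of them shared. The limits of the study's methods (500 to 5000 genes per cell, mitochondrial share no higher than 10%) kept 15531 and 16360 cells. Tumor cells were gated by a UMI of 3 or more of *Epcam*, *Krt7*, *Krt8*, *Krt18* and *Krt19*, which left 1862 PBS and 1062 anti–PD-1 cells with medians of 4028 and 2842.5 UMIs. Normal biliary epithelial cells, a cell type of its own in the study, can pass this gate and were not separated. Tumor cells below therefore means cells that passed the gate. The gate was not pure: *Ptprc*, the pan-leukocyte gene for CD45, had a UMI in 42.1% of PBS and 51.2% of anti–PD-1 gated cells, 2 or more of 5 neutrophil markers were seen in 13.9% and 53.1%, and 2 or more acinar markers in 0 and 38 cells. The libraries also differed in sex-linked transcripts. Of the PBS tumor cells, 839 had *Xist* and no Y-linked UMI and 149 the reverse, against 3 and 466 in anti–PD-1. The part of these differences in the values below was not tested, and no doublet caller was run.

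In the PBS library, all 4 genes were detected in a minority of tumor cells. *H19* had 1933 UMIs in 175 of the 1862 cells, a level of 160 CPM (Poisson interval 153 to 168). *Nts* had 1796 UMIs in 169 cells, or 149 CPM (142 to 156). *Nmu* and *Sbpl* were lower, with 404 UMIs in 86 cells (33.5 CPM, 30.3 to 37.0) and 408 UMIs in 54 cells (33.9 CPM, 30.7 to 37.3). More *H19* and *Nts* than *Nmu* and *Sbpl* UMIs were thus captured, and the intervals of the latter pair overlapped. CPM sets a gene's summed UMIs against all UMIs of the same cells, without correction for transcript length, so the order of the genes is one of UMIs captured.

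In the anti–PD-1 tumor cells, *H19* had 18 UMIs in 3 cells (3.06 CPM, 1.82 to 4.84), and 16 of the 18 were in a single cell. *Nts* had 8 UMIs in 6 cells (1.36 CPM, 0.588 to 2.68), with at most 2 in a cell. *Nmu* had 1 UMI, and *Sbpl* had 0 in 1062 cells, which allows up to 0.628 CPM. The log2 ratios of anti–PD-1 over PBS, with a pseudocount of 5 CPM, were -4.36 for *H19*, -4.60 for *Nts*, -2.90 for *Nmu* and -2.96 for *Sbpl*. Without a pseudocount, the PBS level was 52.4 times the anti–PD-1 level for *H19* (counting interval 33.0 to 88.5), 109 times for *Nts* (55.4 to 254) and 197 times for *Nmu* (35.1 to 7798). For *Sbpl*, the ratio against a floor of 3 UMIs in the anti–PD-1 library was 66.3, and its exact lower counting bound was 53.7. All 4 were past a log2 ratio of -1, as were 1.95% of the 9756 genes with a mean of 10 CPM or more, among which they ranked 3rd, 4th, 14th and 17th from the lowest. This ratio chose the members, and nothing is read from their count. The median log2 ratio over those genes was -0.08.

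Those UMIs were concentrated in few cells. The 10 PBS tumor cells with most UMIs of a gene held 51.3% of the *H19*, 54.9% of the *Nts*, 48.0% of the *Nmu* and 85.3% of the *Sbpl* UMIs. The highest cells had 154, 127 and 122 UMIs of *H19*, 362, 115 and 101 of *Nts*, 32, 28 and 23 of *Nmu*, and 178, 121 and 11 of *Sbpl*. At the other end, 83 of the 175 *H19* cells, 83 of the 169 *Nts* cells, 34 of the 86 *Nmu* cells and 32 of the 54 *Sbpl* cells had a single UMI. The distribution therefore held a long tail of high cells above many cells at 1 or 2 UMIs, and 2 cells held most of the *Sbpl* UMIs. A Poisson interval treats UMIs as independent and is too narrow for counts carried by so few cells. Without the single highest PBS cell, the PBS level was 148 CPM for *H19*, 119 for *Nts*, 30.9 for *Nmu* and 19.1 for *Sbpl*.

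**Figure D1:**
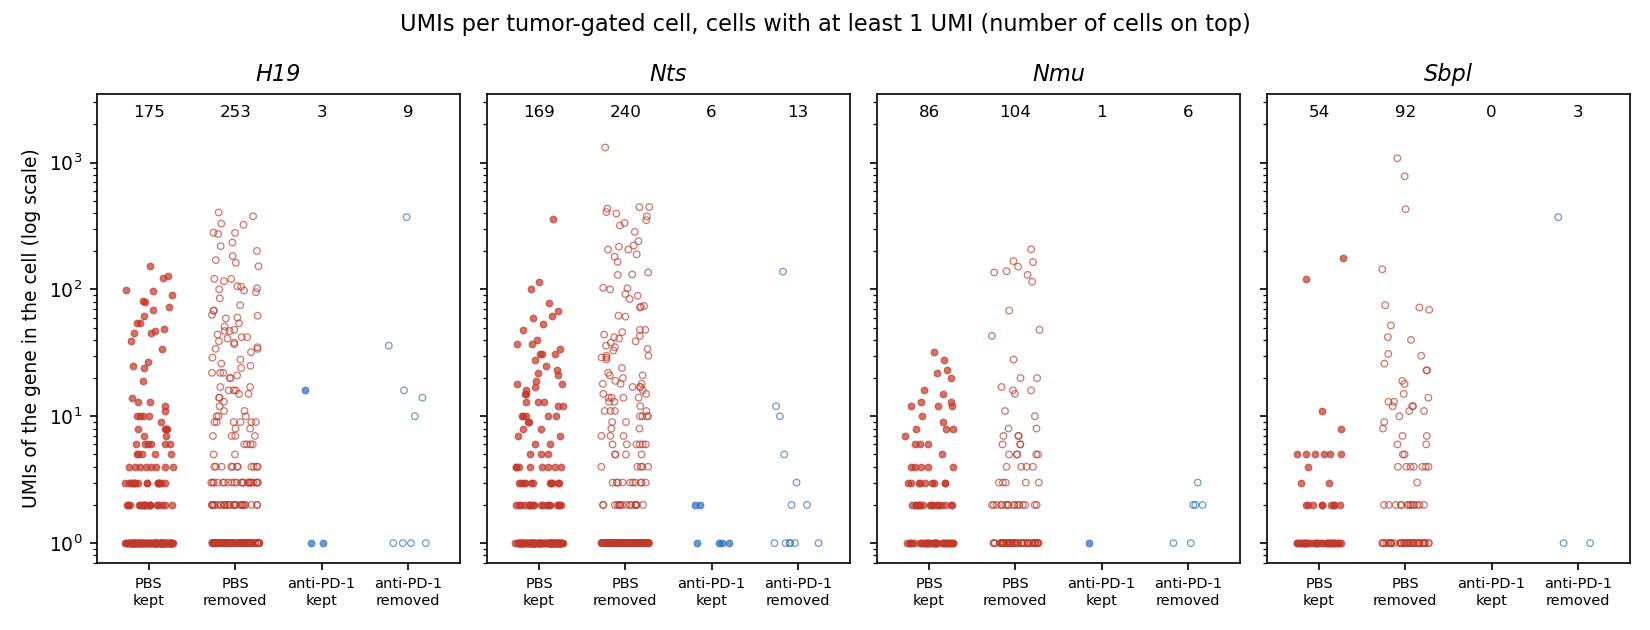
UMIs of each gene (log axis) in every tumor-gated cell with at least 1 UMI, in cells kept by the filters (filled) and removed by them (open), PBS in red and anti–PD-1 in blue; the number of cells is on top. Kept PBS cells reach 154 UMIs of *H19* and 362 of *Nts*, while removed cells reach 404 and 1313, and single removed anti–PD-1 cells reach 371 *H19* and 371 *Sbpl* UMIs.

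The filters removed most of the RNA of these genes. Of 3649 PBS barcodes that passed the tumor gate, 1787 (49.0%) were outside the limits, 755 of them with more than 5000 genes and a median of 30438 UMIs. Those 755 barcodes held 22.0% of all UMIs of the library but 47.9% of its *H19*, 65.7% of its *Nts*, 64.1% of its *Nmu* and 57.9% of its *Sbpl* UMIs. The kept tumor cells held 18.4%, 13.3%, 16.3% and 9.22% of them, with 9.90% of the library's UMIs. The level was also higher there. *Nts* stood at 332 CPM over the gene limit against 149 CPM in kept tumor cells, *Sbpl* at 95.6 against 33.9, *Nmu* at 59.4 against 33.5 and *H19* at 188 against 160.

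The cells with most UMIs were of this kind. The highest *Nts* cell had 1313 *Nts* UMIs among 32923, or 3.99% of its UMIs, and 151 *Nmu* UMIs. It had 44 *Krt8* and 67 *Krt18* UMIs and none of *Ptprc*. The highest *H19* cell had 404 *H19* and 74 *Nts* UMIs among 47061, and the second 377 *H19* and 407 *Nts* among 61612. The highest *Nmu* cell had 207 UMIs of *Nmu*, 1 of *Nts* and 19 of *Sbpl*. The highest *Sbpl* cell had 1080 UMIs of *Sbpl* and none of the other 3 genes. All of these cells carried *Krt8* and *Krt18* UMIs and 0 or 1 *Ptprc* UMI.

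In the anti–PD-1 library, the removed tumor-gated barcodes held 59.3% of the *H19*, 48.1% of the *Nts*, 68.8% of the *Nmu* and 89.9% of the *Sbpl* UMIs, mostly in single cells. Of 760 *H19* UMIs in the whole library, 371 were in 1 tumor-gated cell with 7043 genes, 264 *Krt8* and 252 *Krt18* UMIs. Of 415 *Sbpl* UMIs, 371 were in 1 tumor-gated cell with 6253 genes and 12 *Ptprc* UMIs, and of 370 *Nts* UMIs, 138 were in 1 tumor-gated cell with 17.6% mitochondrial UMIs. *Nmu* was spread thinly, with at most 3 UMIs in any barcode and 16 in all 19451. Over all tumor-gated barcodes of both libraries, the PBS level was 7.77 times the anti–PD-1 level for *H19*, 25.8 times for *Nts*, 75.0 times for *Nmu* and 4.14 times for *Sbpl*. Leaving out the highest cell of each library changed these to 35.4 times (counting interval 29.0 to 43.7), 88.3 (66.5 to 120), 90.2 (47.4 to 198) and 542 (150 to 4481), the last resting on 2 anti–PD-1 UMIs. With only the gene limit lifted, the log2 ratio of *Sbpl* was -0.86 and no longer past -1, with that single cell included. For *Sbpl*, 1 cell set the size of this ratio.

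**Figure D2:**
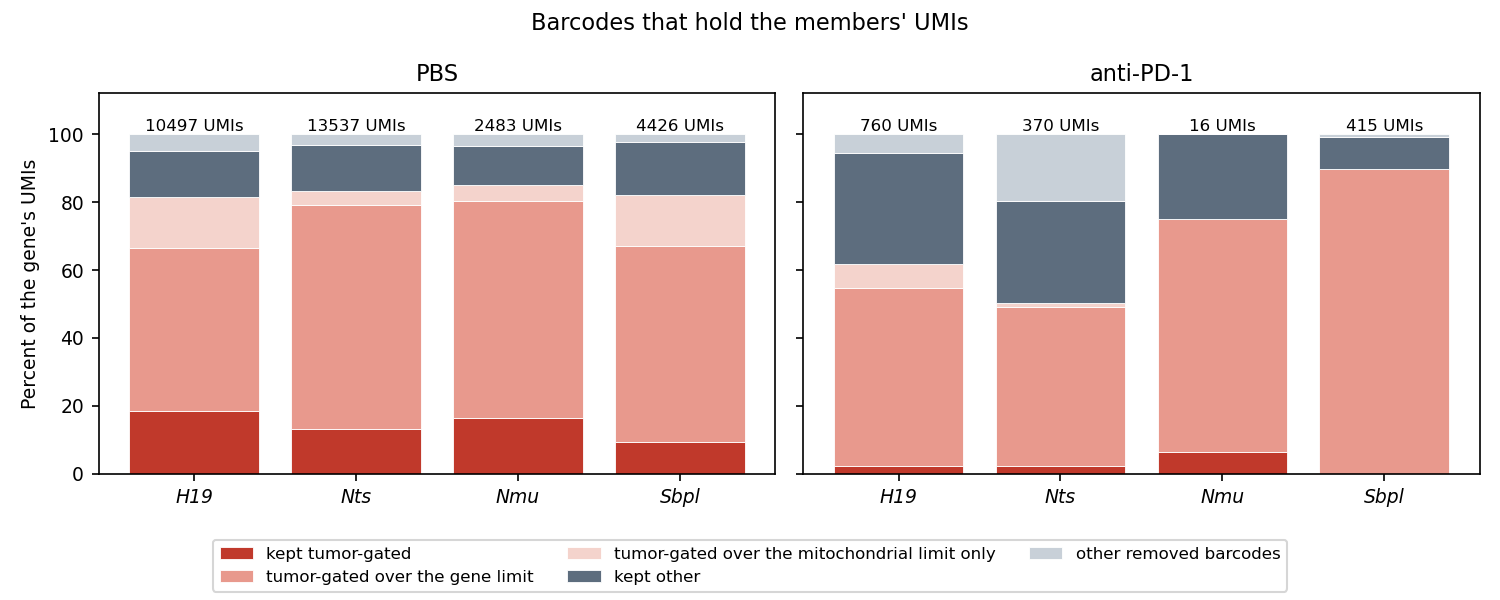
Percent of each gene's UMIs (bars, total number on top) held by kept tumor-gated cells, by tumor-gated barcodes over the limit on detected genes or over the mitochondrial limit only, by other kept cells and by other removed barcodes. In PBS, barcodes over the gene limit hold between 47.9% (*H19*) and 65.7% (*Nts*); in anti–PD-1 they hold 89.9% of *Sbpl*.

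To compare shares of positive cells, 1000 UMIs were drawn from every cell that had them, with T cells, which should lack all 4 RNAs, as the background. Among 1734 PBS tumor cells, *H19* was seen in 5.25% (exact binomial interval 4.25 to 6.40), *Nts* in 4.73% (3.78 to 5.84) and *Nmu* in 2.36% (1.70 to 3.19). In 3233 PBS T cells the same shares were lower, at 1.08%, 0.804% and 0.217%. The genes were selected on these tumor cells, so the difference is a description. Other PBS classes differed from T cells: *H19* was seen in 1.61% of B cells and 0.386% of monocytes and macrophages. *Nmu* was seen in 0.828% of NK cells (0.226 to 2.11) and 0.267% of monocytes and macrophages. *Sbpl* was seen in 0.750% of tumor cells (0.400 to 1.28) and 0.526% of T cells (0.307 to 0.841), and the share of *Sbpl*-positive tumor cells was not separable from background at this depth. Its level did differ, at 33.9 CPM in tumor cells against 4.95 CPM in T cells, and rested mostly on the 2 highest cells. Unthinned, the tumor shares were 9.40%, 9.08%, 4.62% and 2.90%, against 2.75%, 2.10%, 0.610% and 0.976% in T cells, with medians of 4028 and 2711.5 UMIs. In 942 thinned anti–PD-1 tumor cells, 4 had *Nts* and 0 had *H19*, *Nmu* or *Sbpl*, which allows a share of up to 0.318% by a floor of 3 cells and 0.391% by the exact interval.

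Positive tumor cells were found at every depth. In PBS cells with up to 1000 detected genes, *H19* stood at 241 CPM, *Nts* at 269 and *Nmu* at 74.4, and in cells with 3000 to 5000 genes at 158, 157 and 25.6. *Nmu* fell through the ranges up to 5000 genes, with 57.5 CPM at 1000 to 2000 and 31.2 at 2000 to 3000, and its thinned share fell from 5.57% to 2.98%, 1.90% and 1.65%. Over 5000 genes, within the mitochondrial limit, the levels were 219, 412 and 70.0 CPM. *Sbpl* ran from 12.3 CPM at 2000 to 3000 genes to 80.2 CPM over 5000. Each range rests on few high cells.

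Outside the tumor gate, the members parted. PBS T cells had 13.0 CPM of *H19*, 8.16 of *Nts*, 2.75 of *Nmu* and 4.95 of *Sbpl*, and monocytes and macrophages had 4.23, 5.29, 1.24 and 1.03, all far below tumor cells. PBS endothelial cells (503 cells) had as much *H19* as tumor cells, at 162 CPM (147 to 180), and more *Nts*, at 221 CPM (202 to 241), but only 2.13 CPM of *Nmu* and 1.70 of *Sbpl*. For every 100 *Nts* UMIs, endothelial cells had 0.963 *Nmu* and 0.771 *Sbpl* UMIs, against 22.5 and 22.7 in tumor cells and 23.4 and 19.5 in monocytes and macrophages. In T cells there were 33.7 *Nmu* and 60.7 *Sbpl* UMIs for every 100 of *Nts*. Endothelial cells thus had *H19* and *Nts* with almost none of the other pair.

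*H19* and *Nts* in endothelial cells went with lymphatic markers, a list chosen after the data were seen (*Prox1*, the master transcription factor of lymphatic endothelium, *Flt4*, the receptor VEGFR3, *Mmrn1*, *Ccl21a* and *Reln*). *Flt4* was broad, with a UMI in 250 of the 470 PBS endothelial cells without *H19*, against 29 for *Prox1*. A cell with *Flt4* thus needed 1 UMI of any other marker to count. In the 51 PBS endothelial cells with UMIs of 2 or more of these 5 markers, *H19* and *Nts* each had 344 UMIs, or 1001 CPM (898 to 1112). In the 452 other endothelial cells they stood at 18.9 CPM (13.4 to 26.0) and 87.2 CPM (74.7 to 101). *H19* was seen in 20 of the 51 cells and 13 of the 452, and *Nts* in 27 and 38. More of the *Nts* cells thus lay outside the marker group than in it. Among the 51 cells, a cell had at most 66 *H19* and 70 *Nts* UMIs. The keratin RNAs did not follow: *Krt8* stood at 78.6 CPM in the 51 cells and 84.2 CPM in the others, and *Epcam* at 11.6 and 18.4 CPM. The anti–PD-1 library had 5 such cells, with 17 *Nts* and 0 *H19* UMIs. In PBS, lymphatic-marker cells thus had a higher level of both genes than tumor cells on average.

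Other classes added single cells. The 2212 PBS cells that fell in no class had 602 *H19*, 884 *Nts*, 142 *Nmu* and 548 *Sbpl* UMIs, and 482 of the *Sbpl* UMIs were in 1 cell with 8 *Krt8* and 2 *Krt18* UMIs, 1 gate gene short of the tumor gate. In the anti–PD-1 library the highest *H19* level of any class was in fibroblasts, with 124 UMIs in 12 of 195 cells (132 CPM, 110 to 157), of which 3 cells held 74.2%. PBS fibroblasts had 11.9 CPM (7.97 to 17.1), and anti–PD-1 fibroblasts had no UMI of the other 3 genes.

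**Figure D3:**
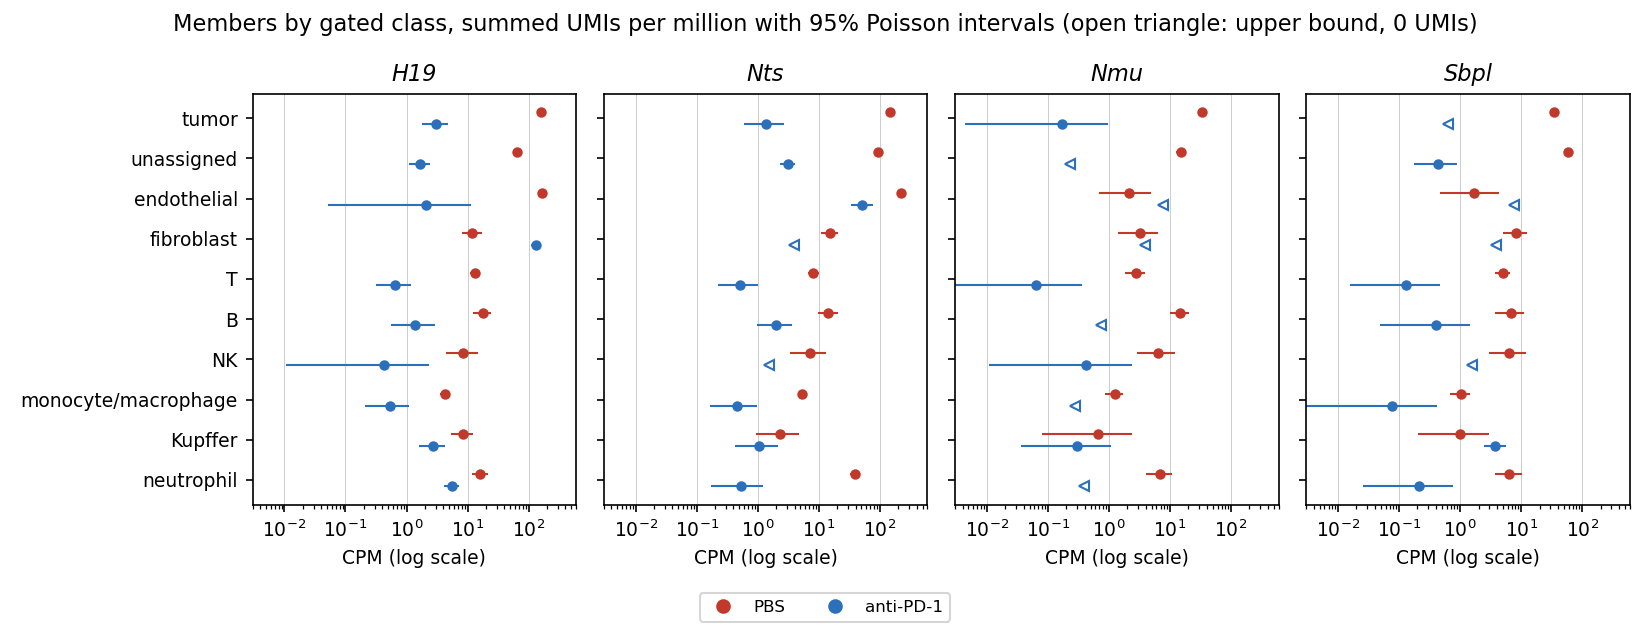
Level of each gene in 10 gated classes (CPM, log axis) with 95% Poisson intervals, PBS in red and anti–PD-1 in blue; open triangles mark the upper bound where no UMI was found. In PBS endothelial cells *H19* lies at the level of PBS tumor cells and *Nts* above it, while *Nmu* and *Sbpl* lie below.

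*H19*, *Nts* and *Nmu* were found together in PBS tumor cells more often than the product of their shares. At 1000 UMIs per cell, 1548 of 1734 cells had no member, 151 had 1, 30 had 2, 4 had 3 and 1 had all 4. The 35 cells with 2 or more (2.02%, 1.41 to 2.80) compare with 9.67 cells from the product of the 4 shares. *Nts* and *Nmu* were together in 20 cells against 1.94 from the product, which is 48.8% of the 41 *Nmu* cells and 24.4% of the 82 *Nts* cells (phi, the correlation of detected or not over the 1734 cells, 0.32). *H19* and *Nts* were together in 13 cells against 4.30 (phi 0.11), and *H19* and *Nmu* in 11 against 2.15 (phi 0.15). *Sbpl* shared 2 cells with *H19* and 1 each with *Nts* and *Nmu*, against 0.682, 0.615 and 0.307 (phi 0.04 or less). The cells share 1 library and its free RNA, so these values describe it without a test.

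Among cells with many UMIs, *H19* and *Nts* were the pair found together most often. Among all 3649 PBS tumor-gated barcodes, 106 had 10 or more UMIs of *H19*, 119 of *Nts*, 33 of *Nmu* and 30 of *Sbpl*, and 45 were high in 2 or more genes. Both *Nts* and *Nmu* were high in 16 barcodes (1.08 from the product), *H19* and *Nmu* in 9 (0.959), and *H19* and *Nts* in 22 (3.46), which leaves 84 of the 106 high *H19* barcodes without a high *Nts*. *Sbpl* was high together with *H19* in 1, with *Nts* in 2 and with *Nmu* in 3 barcodes, against 0.871, 0.978 and 0.271 from the product. Most high cells were therefore high in 1 member only, 194 of 239. These counts were not thinned and include the barcodes over the gene limit, with a median of 30438 UMIs against 4028 in kept cells. The product of shares takes no account of depth. Whether the barcodes over the limit hold more than 1 cell was not tested.

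**Figure D4:**
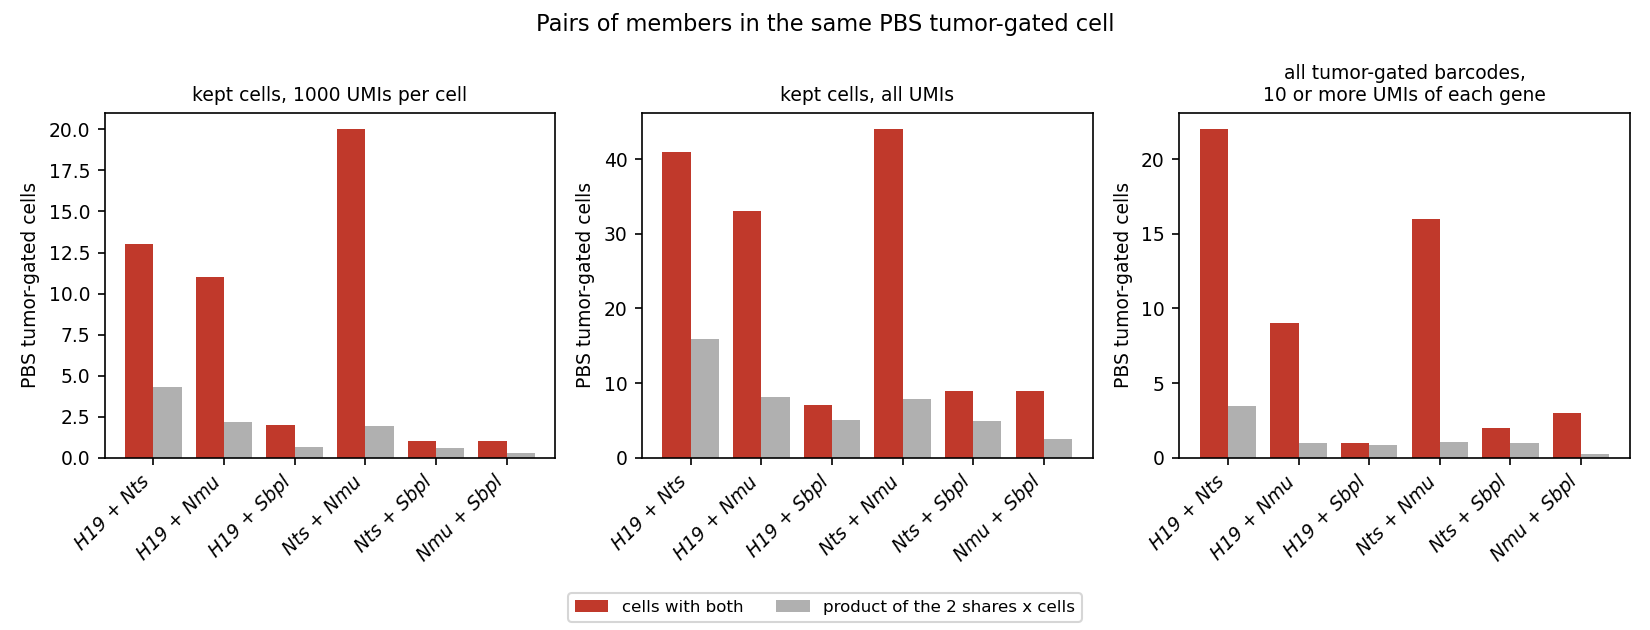
PBS tumor-gated cells in which both genes of a pair were found (red) beside the number given by the product of their shares (grey), in kept cells thinned to 1000 UMIs, in kept cells with all UMIs, and among all tumor-gated barcodes with 10 or more UMIs of each gene. The pair *Nts* and *Nmu* has 20, 44 and 16 cells, against 1.94, 7.81 and 1.08.

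The members were found with either kind of sex-linked transcript. In PBS, the 149 cells with a Y-linked UMI and no *Xist* had 246 CPM of *H19*, 65.2 of *Nts*, 60.4 of *Nmu* and 101 of *Sbpl*. The 839 cells with *Xist* and no Y-linked UMI had 115, 158, 17.3 and 32.3 CPM. In the former, 121 of the 126 *Sbpl* UMIs and 154 of the 305 *H19* UMIs were in 1 cell each. In the 466 anti–PD-1 cells with a Y-linked UMI and no *Xist*, the same genes had 17, 2, 1 and 0 UMIs, or 4.17 CPM of *H19* and 0.490 of *Nts*.

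The receptors of the 2 peptides were nearly absent. *Ntsr1* and *Ntsr2*, the neurotensin receptors, had 1 and 0 UMIs in all kept PBS cells and none in anti–PD-1. *Nmur2*, a neuromedin U receptor, had none in either library, and *Nmur1*, the other, had 23 UMIs in 18 PBS and 10 in 9 anti–PD-1 cells, with 1 UMI in PBS tumor cells. *Sort1*, the sorting receptor sortilin, which also binds neurotensin, was in 24.6% of PBS and 21.8% of anti–PD-1 tumor cells, at 63.5 and 63.2 CPM. *Nms*, the gene of the related peptide neuromedin S, had 1 UMI. *Sbp*, 7476 bases from *Sbpl* in the genome, had 1 UMI, in PBS. Of the 60-base windows of *Sbpl* transcripts, 34.5% also occur in *Sbp* transcripts, and a read from such a window cannot be assigned to either gene. Where the reads lie along the transcripts was not examined, so the size of this uncertainty in the *Sbpl* counts is not known. *Igf2*, 72622 bases from *H19*, had 16 UMIs in 12 PBS tumor cells (1.33 CPM) and 0 in anti–PD-1, so *H19* stood without comparable *Igf2* RNA.

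The genes that went most closely with each member over the 1734 thinned PBS cells overlapped among *H19*, *Nts* and *Nmu*. For *H19* the 8 highest phi values were those of *Vtn* (0.28, in 42 of the 91 *H19* cells), *Cdkn1c* (0.20), *Spon1* (0.18), *Igfbpl1* (0.17), *Ptn*, *Cdh15* and *Bambi* (0.16 each) and *Nmu*. For *Nts* they were *Nmu*, *Ptn* (0.24), *Vtn* (0.21), *Podxl* (0.20), *Upk3a*, *Cdkn1c*, *Gadd45g* and *Fstl1* (0.17 to 0.18). For *Nmu* they were *Nts*, *Upk3a* and *Podxl* (0.20 each), *Ptn* and *Wfdc18* (0.19 each), *Gadd45g*, *Esm1* and *Gc* (0.15 to 0.17). *Vtn* encodes vitronectin, a plasma and matrix adhesion protein, *Ptn* the heparin-binding growth factor pleiotrophin, *Cdkn1c* the imprinted cell cycle inhibitor p57, and *Upk3a* a uroplakin of urothelium. *Ptn* was in the top 8 of all 3 genes. The top genes of *Sbpl*, led by *Terf2* (0.17) and *Rims1* (0.13), with *Bambi*, *Aplp1*, *Fam118a*, *Pinx1*, *Enpep* and *Phc2*, rest on 13 *Sbpl* cells and 3 to 6 shared cells each, and are weak.

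The lowest phi values, which cannot be strongly negative for genes found in so few cells, were those of *B2m*, *Rps23*, *Tmem176b* and *Rpl10* for *H19* (-0.07 each), *Ttr* (-0.09), *Ftl1*, *Gp2* and *Actb* for *Nts*, *Ttr* (-0.09), *Apoe*, *Tspo* and *Sh3bgrl3* for *Nmu*, and *Rps23* (-0.08), *Clic1*, *Rpl9* and *Tyrobp* for *Sbpl*. *Ttr*, the thyroxine carrier transthyretin of hepatocytes, was in 1 of the 41 *Nmu* cells and 10 of the 82 *Nts* cells, against 528 of all 1734.

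PBS tumor cells with 2 or more members (35 cells) were then set against those with none (1548 cells), with all UMIs summed and the 4 members left out. The groups had medians of 2322 and 4640 UMIs. A log2 ratio of 1 or more was seen in 1112 of the 10956 genes with 10 CPM or more in either group (10.1%), and -1 or less in 1909 (17.4%), so single ratios from 35 cells spread widely. The 12 highest were *Dlk1* (5.90), *Ptn* (4.47), *Msc* (4.41), *Meg3* (4.27), *Cdkn1c* (4.03), *Vtn* (4.03), *Cnmd* (3.76), *Cck* (3.69), *Slitrk2* (3.68), *Pkp1* (3.66), *Rian* (3.55) and *Guca2b* (3.52). Of these, *Dlk1*, *Meg3*, *Cdkn1c* and *Rian* are imprinted like *H19*, and *Cck* encodes the gut peptide cholecystokinin. *Cdkn1c* was in 27 of the 35 cells (77.1%) against 21.3% of the others, *Ptn* in 65.7% against 8.20%, *Vtn* in 62.9% against 17.0%, and *Meg3* in 42.9% against 8.79%. One cell held 86.2% of the *Dlk1*, 88.5% of the *Guca2b* and all of the *Msc* UMIs of the 35. *Dlk1*, *Msc*, *Cnmd*, *Slitrk2* and *Pkp1* reached 10 CPM only in the 35 cells, where they are high. In the others they stood at 9.11, 1.39, 8.93, 5.67 and 8.28 CPM. All 12 kept a ratio of 1 or more with no limit on detected genes (53 cells against 1967). That setting includes the kept cells from which the 12 were picked, so it is not a separate check of them.

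The 8 lowest were 7 genes of antibody-secreting cells, *Igha* (-7.85), *Iglc1*, *Jchain*, *Iglv1*, *Ighg2c*, *Ighg2b* and *Igkc* (-5.54), and *Ccl6*, a myeloid chemokine with 0 UMIs in the 35 cells against 246 CPM. *Iglv1* also had 0 UMIs. Single cells carried much of this RNA, with 21183 of the 21468 *Iglc1*, 5068 of the 5305 *Ighg2b*, 2426 of the 2933 *Iglv1*, 10530 of the 38447 *Igha* and 5878 of the 21559 *Ighg2c* UMIs of all PBS tumor cells in the highest cell of each gene. *Ptprc* had a UMI in 14.3% of the 35 cells and 46.3% of the 1548, and the summed level of 5 plasma cell markers was 73.6 against 1535 CPM. Restricted to cells with no *Ptprc* UMI (28 against 832), 963 of 10207 genes were at 1 or more and 2123 at -1 or less. There 5 of the 8 were at -1 or less, and 11 of the 12 highest genes were measured, all at 1 or more. The gene not measured was *Msc*, at 0 CPM in the 28 cells against 2.84 CPM, and *Dlk1* stood at 2.69. Only 5 of the 35 cells had a *Ptprc* UMI, so the 28 are not a separate set of cells. The part of leukocyte RNA in these ratios was not tested.

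Of 22 imprinted genes other than *H19*, 15 were measured, of which 11 were at a ratio of 1 or more, 0 at -1 or less and 4 between, beside 10.1% and 17.4% of all genes at 1 or more and -1 or less. Their median was 1.84 against -0.04 over all genes measured. That median is the value of *Phlda2*, which rests on 5 UMIs in 3 of the 35 cells, of which 1 cell held 60%. Beside the 4 named above, *Igf2r*, the receptor that clears IGF2 (2.36), *Mirg* (2.25), *Peg3* (2.14), *Phlda2* (1.84), *Slc38a4* (1.65), *Peg10* (1.26) and *Airn* (1.20) were past the fold. *Meg3*, *Rian* and *Mirg* are noncoding RNAs of the *Dlk1* domain. *Igf2* did not reach 10 CPM in these kept cells, with 1 UMI in the 35. *Peg10* rests on 2 UMIs in the 35 cells, and *Mirg* on 6, of which 1 cell held 66.7%. *Dlk1*, *Mirg*, *Phlda2* and *Peg10* reached 10 CPM only in the 35 cells, where they are high, with 9.11, 2.70, 3.72 and 1.49 CPM in the others. *Plagl1*, *Mest* and *Ndn*, with 0 UMIs in the 35 cells, were not measured. The count and median depend on that limit of 10 CPM, and nothing is read from them. With no limit on detected genes 10 of 15 were at 1 or more, beside 430 of all 10306 genes measured there, where *Airn* stood at 0.44, *Peg10* was not measured, and *Igf2* was measured, at 15.6 against 0.316 CPM (1.96). Without *Ptprc* cells 11 of 14 were at 1 or more, beside 963 of 10207 genes, with *Mirg* not measured and *Sgce* at 1.11. The list was chosen with earlier results of these data known.

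Of 9 Notch targets measured, 6 were at 1 or more, beside 10.1% of all genes, and 0 at -1 or less (median 1.44). The highest were *Heyl* (2.08), *Notch3* (1.71), *Nrarp* (1.65) and *Hey2* (1.51), while *Jag1* (0.18), *Dtx4* (0.15) and *Hes1* (-0.37) lay between. *Notch3* rests on 6 UMIs in 3 of the 35 cells, *Hey2* on 9 UMIs and *Hes5* (1.25) on 3. *Notch3* and *Hes5* reached 10 CPM only in the 35 cells, with 6.14 and 3.72 CPM in the others. *Dtx1*, with 0 UMIs in the 35 cells against 9.86 CPM, was not measured. The count and median depend on that limit of 10 CPM, and nothing is read from them. Without *Ptprc* cells 5 of 9 Notch targets were at 1 or more, beside 963 of 10207 genes. With no limit on detected genes 7 of 9 were, beside 430 of all 10306 genes measured. Of the 2 genes whose truncated or activated forms drove the tumors, *Notch1* was at 1.60 and *Akt1* at 0.86. UMIs of the injected and the endogenous genes were not separated. Of 16 YAP/TAZ targets, 2 were at 1 or more (*Fjx1*, 1.82) and 5 at -1 or less (*Crim1*, -1.93, *Myof*, -1.46, *Axl*, *Lats2* and *Nuak2*), with a median of -0.39, beside 10.1% and 17.4% of all genes, and nothing is read from these counts about the list. *Nuak2* had 0 UMIs in the 35 cells against 13.9 CPM, less than the 15.8 CPM that 3 UMIs make there. These calls depended on the limit on detected genes: without it none of 15 was at 1 or more and 4 were at -1 or less, beside 430 and 929 of 10306 genes. *Crim1* (-1.55) and *Axl* (-1.01) stayed at -1 or less, *Lats2* (0.09) and *Myof* (-0.97) did not, *Nuak2* was not measured, and *Ccn2* (-1.50) and *F3* (-1.66) joined them. Of 12 biliary epithelium genes, none was at 1 or more and 6 were at -1 or less (median -0.99), beside 10.1% and 17.4% of all genes, with *Muc1*, a membrane mucin, at -2.75, *Tspan8* at -1.91, and *Spp1* at 0.70. Of the 6, *Cldn4* and *Krt23* had 0 UMIs in the 35 cells against 13.8 and 10.2 CPM, which is also under 15.8 CPM.

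Of 5 hepatocyte genes measured, 4 were at -1 or less, beside 17.4% of all genes, with *Alb* at -3.88 and *Ttr* at -2.83, although *Apoa1*, with 0 UMIs in the 35 cells, stood below 15.8 CPM in the others as well. Interferon-gamma response genes had 4 of 12 at -1 or less, beside the same 17.4% (*Irf1*, -1.53, and *Cxcl9*, *Gbp2* and *Gbp3* with 0 UMIs) and none at 1 or more. The summed level of the monocyte and macrophage markers was 305 CPM in the 35 cells against 1028 in the 1548, and that of the Kupffer cell markers 47.3 against 1077, and their part in these values was not tested. Dissociation stress genes had 3 of 10 at -1 or less (*Hspa1a*, -2.53) and none at 1 or more, beside 17.4% and 10.1% of all genes, and nothing is read from that count. Cycling genes had 4 of 10 at 1 or more (*Ube2c*, 2.54) and 1 at -1 or less (*Tpx2*, 0 UMIs against 11.6 CPM), beside 10.1% and 17.4% of all genes. With no limit on detected genes 0 of 10 lay either way, beside 430 and 929 of 10306. Of 8 epithelial to mesenchymal genes, 1 was at 1 or more (*Cdh2*, 1.05) and 2 at -1 or less (*S100a4* and *Mmp7*, with 0 UMIs in the 35 cells against 111 and 84.4 CPM), which is near the shares of all genes. Of 7 oncofetal and progenitor genes, *Dlk1* and *Igf2bp3* (1.45) were at 1 or more and *Prom1* (-1.48) at -1 or less, beside the same shares of all genes. *Dlk1* and *Igf2bp3*, like *Cdh2* and the cycling gene *Ccnb1* (1.21), reached 10 CPM only in the 35 cells.

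Genes for cutting and packaging peptide hormones were sparse apart from *Furin*, *Cpe*, *Cpd* and *Pam*, which lay between -0.40 and 0.74. Of 14 prohormone processing and secretory granule genes, 6 were measured and 2 were at 1 or more, beside 10.1% of all genes, *Pcsk1n* (1.93, 3 UMIs) and *Scg5* (1.53, 4 UMIs). These 2 reached 10 CPM only in the 35 cells, at 15.8 and 21.0 CPM against 0.465 and 4.00 CPM, and nothing is read from that count. *Pcsk1*, a main neurotensin-processing convertase, had 1 UMI, and *Pcsk2* 4, in the 1548 cells and none in the 35, and *Scg2*, *Chga* and *Chgb* had none in either. Of the other peptide hormones 4 of 18 were measured, with *Cck* and *Pthlh* (1.69) at 1 or more and *Penk* (-1.05, 1 UMI) at -1 or less. All genes had shares of 10.1% and 17.4% there. With no limit on detected genes 2 of the hormones were measured and 2 were at 1 or more, beside 430 of all 10306 genes. The receptor list had 2 measured genes, *Sort1* (0.32) and *Sorl1* (-0.68). Of the 4 *Sbp*-related secretory genes none was measured.

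**Figure D5:**
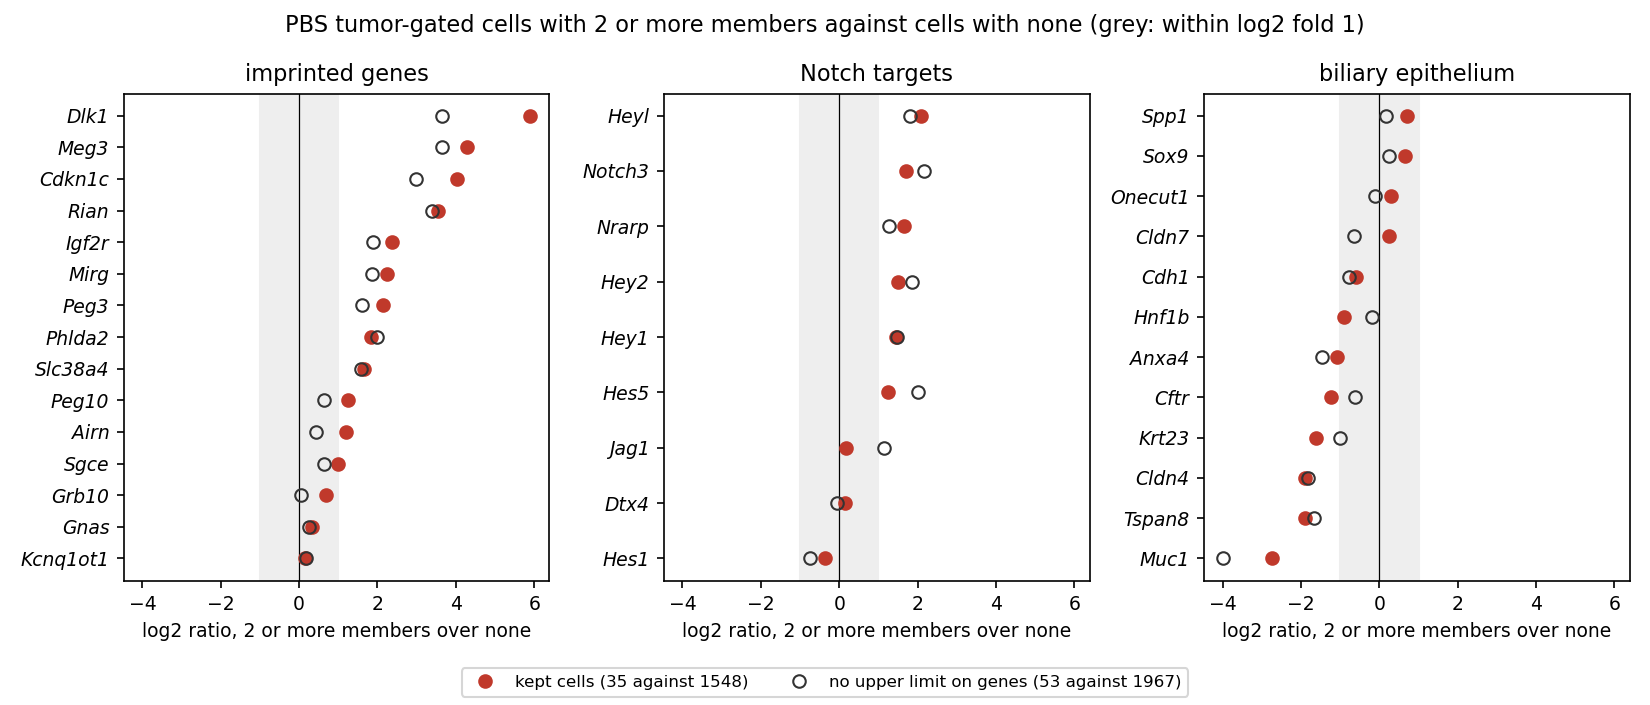
Log2 ratio of PBS tumor-gated cells with 2 or more members over cells with none, for the measured imprinted, Notch target and biliary epithelium genes, in kept cells (red) and with no upper limit on detected genes (open). In kept cells, 11 imprinted genes lie above 1, from *Airn* (1.20) to *Dlk1* (5.90).

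In tumor cells, part of the genes named above were past a log2 ratio of -1 of anti–PD-1 over PBS, as were 1.95% of all genes measured. *Cdkn1c* stood at 209 CPM in PBS and 16.7 in anti–PD-1 (log2 ratio -3.30), *Meg3* at 88.0 and 4.26 (-3.33), *Rian* at 30.6 and 3.06 (-2.14), *Ptn* at 57.0 and 7.66 (-2.29), *Vtn* at 267 and 45.8 (-2.42), *Cck* at 27.2 and 1.02 (-2.42) and *Esm1* at 32.7 and 0.170 (-2.87). *Dlk1* had 308 UMIs in PBS, 137 of them in 1 cell, and 0 in anti–PD-1. Not past -1 were, among the imprinted genes, *Igf2r* (-0.81), *Peg3* and *Mirg* (-0.63 each), *Slc38a4* and *Peg10* (-0.42 each) and *Phlda2* (-0.23). Among the top genes of *H19*, *Nts* and *Nmu* by phi, they were *Gc* (-0.89), *Gadd45g* (-0.88) and *Wfdc18* (-0.38). Among those of *Sbpl*, they were *Fam118a* (-0.96), *Aplp1* (-0.92), *Pinx1* (-0.13), *Terf2* (0.11) and *Phc2* (0.17). The log2 ratio was -0.05 for *Gnas*, -0.07 for *Grb10* and -0.16 for *Sgce*, imprinted genes named after their values were seen, and -0.01 for *Sort1*. With 1 library per group these are 2 values side by side, and the genes were chosen by their level with the members, so nothing is read from how many were low.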

How the data were processed

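In all, 2 GEXSCOPE single-cell RNA-Seq libraries were used, 1 per treatment. The authors aligned reads to mm10 with Cell Scope (Singleron, version not given in the sources used here) and deposited UMI counts per gene and barcode. The submitters' processing notes also name Seurat 4.3. The counts were used as deposited, without normalization, and no column was left unmapped. Barcodes with 500 to 5000 genes and at most 10% mitochondrial UMIs were kept, giving median depths of 3159 (PBS) and 2990 (anti–PD-1) UMIs. The tumor gate took precedence, and other cells took the class with most detected markers, at least 2 (hepatocytes 3), ties unassigned. No doublet caller was run. UMIs were summed per class and library as CPM with exact Poisson intervals, and shares have exact Clopper-Pearson intervals (95%). Log2 ratios used a pseudocount of 5 CPM. Shares and groupings used cells thinned to 1000 UMIs without replacement (seed 1), leaving out shallower cells. Phi was computed over genes seen in at least 2% of cells, 7249 for *H19*, *Nts* and *Nmu* and 7250 for *Sbpl*. With 1 library per group no test was run and no p-value is given. Lifting both limits, leaving out the highest cell, the lymphatic markers, the motif letters and, for accompanying genes, lifting the gene limit or leaving out *Ptprc* cells were chosen after seeing the data. Genes planned to be named were the members, per member the 8 highest and 4 lowest phi, the 12 highest and 8 lowest ratios, and 2 to 4 genes per list. For some lists more genes than planned were named, after their values were seen. Members and lists were chosen with earlier results of these data known. Log2 ratios of summed counts were tested on simulated data. Thinned totals were checked on PBS tumor-gated cells, and the intervals were computed for set counts without a check of coverage. Python 3.11.15, numpy 2.4.6, scipy 1.17.1 and pandas 2.3.3 were used. Positions came from GENCODE vM21. Protein sequences were not used here.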

Additional observations from a re-analysis of the deposited data

Results flagged for a closer look

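Tumor-gated barcodes removed by the limits on detected genes and mitochondrial UMIs, which the comparisons of kept cells do not use, held UMIs of all 4 genes above the 3 that a count of 0 allows. In PBS there were 6629 *H19*, 9472 *Nts*, 1710 *Nmu* and 3221 *Sbpl* UMIs in 1787 such barcodes. In anti–PD-1 there were 451 *H19*, 178 *Nts*, 11 *Nmu* and 373 *Sbpl* UMIs in 717 barcodes, against 0 *Sbpl* UMIs in the 1062 kept tumor cells. Single cells held 371 of the 451 *H19*, 138 of the 178 *Nts* and 371 of the 373 *Sbpl* UMIs of the anti–PD-1 barcodes. Whether these barcodes are single tumor cells or more than 1 cell was not tested.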

How the results depend on the processing

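All 36 alternative log2 ratios of the members between libraries were below 0, and 35 were at -1 or lower, the exception being *Sbpl* at -0.86 with no upper limit on detected genes. That setting gave -2.32 for *H19*, -5.39 for *Nts* and -3.43 for *Nmu*. With neither limit, chosen after seeing the data, the values were -2.72 for *H19*, -4.10 for *Nts*, -3.16 for *Nmu* and -1.80 for *Sbpl*. Cells with Y-linked UMIs but none of *Xist* gave -4.77, -3.68, -3.64 and -4.41 in the same order, and a pseudocount of 1 CPM gave -5.31, -5.99, -4.88 and -5.12. Without *Ptprc* cells, *Nts* was -5.21, *Nmu* -3.44 and *Sbpl* -3.79. *Sbpl* was -3.13 with 4 or more gate genes and -3.73 with up to 20% mitochondrial UMIs. Without the highest cell of each library, also chosen after seeing the data, *H19* was -4.84 and *Sbpl* -2.27. Other log2 ratios stayed within the counting bounds.

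Of 40 alternative shares, 20 left the main interval. Without thinning, 9.40% of PBS tumor cells had *H19*, 9.08% *Nts*, 4.62% *Nmu*, 2.90% *Sbpl* and 5.10% 2 or more members. At 2000 UMIs, *Nts* was 6.13%, *Sbpl* 1.85% and 2 or more members 2.80%. With 4 or more gate genes, *H19* was 3.78%, *Nts* 3.78%, *Nmu* 1.69% and 2 or more members 1.30%. Without *Ptprc* cells, *H19* was 6.74%, *Nmu* 3.42%, *Sbpl* 1.45% and 2 or more members 2.90%. With no gene limit, *Nts* was 5.94%. The cells with Y-linked UMIs only gave 4.08% for *H19*, 3.40% for *Nmu* and 1.36% for *Sbpl*. With no gene limit, 430 genes were higher and 929 lower in cells with 2 or more members, against 1112 and 1909. The causes were not tested, except that thinning removes UMIs and that the *Sbpl* log2 ratio of -0.86 came with 1 cell. No paired analysis was possible because the libraries share only 1 replicate number. With 1 library per group and positives in few cells, depth and cell number limit all values.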

Other observations

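Small counts of the members outside the classes described above also sat in single cells. In anti–PD-1 Kupffer cells, the resident macrophages of the liver, *Sbpl* had 25 UMIs in 3 of 1104 cells, and 14 and 10 of them were in cells with 925 and 2064 UMIs in total and no gate gene. In PBS B cells, 1 cell held 19 of 32 *Nmu* UMIs, and in PBS neutrophils 1 cell held 60 of 105 *Nts* UMIs. Anti–PD-1 neutrophils had 52 *H19* UMIs in 19 of 3655 cells, or 5.50 CPM (4.11 to 7.21), against 0.650 CPM (0.312 to 1.20) in anti–PD-1 T cells.

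The transgene-linked gene *Akt1* had a UMI in 78.8% of PBS and 76.9% of anti–PD-1 tumor cells, and *Spp1*, the osteopontin gene of biliary cells, in 99.0% and 99.1%. *Gp2*, an exocrine and secretory glycoprotein gene with one of the lowest phi values for *Nts*, stood at 2319 CPM in PBS and 5808 CPM in anti–PD-1 tumor cells. The summed level of 6 acinar markers moved the same way, at 7.72 and 7616 CPM, with *Ctrb1* at 7.05 and 3193 CPM, and their part in the *Gp2* values was not tested.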
